A study of Drosophila melanogaster with 3 samples.

Results

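The genes described here are 52 protein-coding genes that varied between replicate libraries of Drosophila melanogaster wing discs and stood highest in library 3. They were chosen by their values. A gene was taken if its FPKM (fragments per kilobase of exon, which the authors scaled for each library) averaged at least 5 over the 3 libraries, if the highest value was more than 2 times the lowest, and if library 3 held the highest value. Genes of the Jonah, trypsin, Drosomycin, odorant-binding, Cpr cuticle, Peritrophin and Muc name groups were left out, as was mthl6, whose mean of 3.84 FPKM is below the limit in any case. Of 6487 genes that had the level and an allowed name, 52 (0.802%) met the rule. With the left-out names included, 147 of 6514 genes (2.26%) varied more than 2 times, and 57 of these (0.875%) were highest in library 3, against 84 (1.29%) that were highest in library 2 and 6 (0.0921%) that were highest in library 1. The 5 genes removed by name were epsilonTry, betaTry, Jon25Bii, Obp99b and Obp99c. Because the 3 values of each gene chose it, all levels and ratios below are descriptions and none was tested. A gene can reach the mean limit through library 3 alone, so the shares of gene lists that were members draw on the same values.

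The wing disc is the larval epithelium that forms the adult wing and the dorsal thorax. Per the labels, all 3 libraries were of the genotype w;apGAL4/+, entered as wild type, in which 1 copy of a GAL4 driver follows apterous, a gene of the dorsal compartment. Larvae were reared at 25 °C and dissected as wandering larvae of about 5 days, and each RNA sample pooled 100 to 120 discs. There is 1 group. Separate cultures are not stated for the samples, so the differences between libraries may be technical.

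In the third larval instar the fat body, the fly's counterpart of liver and adipose tissue, secretes storage proteins and lipid carriers into the hemolymph, the open circulating fluid that bathes the discs. The midgut secretes lysozymes, lipases, maltases and proteases that digest food, and the salivary glands make the glue that fixes the pupa to its support. These organs lie with the imaginal discs in the larval body cavity. Disc identity is set by patterning transcription factors and signals.

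The libraries held 25047773 to 26454949 reads recovered from the FPKM values, and the reads of members in library 3 numbered 84 to 58785. Counts of each pair of libraries differed by more than sampling noise, with a chi-square per degree of freedom of 17.5 to 28.1, and none duplicated another. Over the 6514 protein-coding genes of at least 5 FPKM, the median ratio of library 3 to the mean of libraries 1 and 2 was 0.995, and 2324 of them (35.7%) were highest in library 3. The 37 wing disc patterning genes at that level had a median log2(FPKM + 0.1) difference between library 3 and the mean of the others of -0.0027. None was a member, but only 0.798% of all genes at that level were, so nothing is read from this absence. The summed level of 6 disc markers (ap, vg, nub, wg, hh and Antp) was 277, 268 and 270.02 FPKM in libraries 1, 2 and 3.

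The members were mostly of low level in libraries 1 and 2. Their median FPKM was 4.57 in library 1, 6.37 in library 2 and 23.1 in library 3, and 40 of 52 had a mean below 20 FPKM, against 41.2% of all genes at the level. The median ratio of library 3 to the mean of the other libraries was 2.96, with a range from 1.602 to 42.5. Summed over members, the level was 776, 1310.4 and 3848 FPKM in libraries 1, 2 and 3. The 4 larval serum protein genes alone made up 47.4%, 49.97% and 57.1% of these sums.

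**Figure D1:**
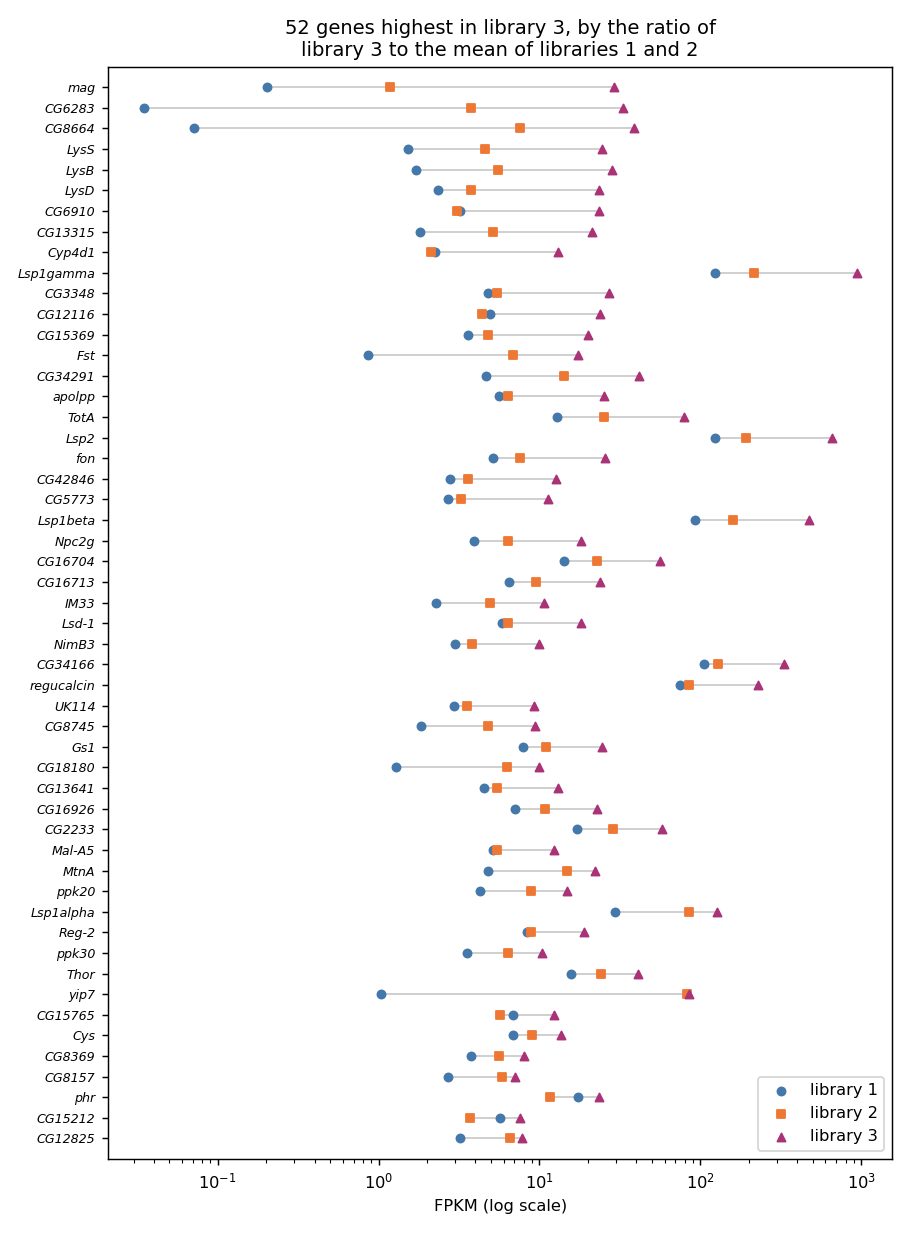
FPKM of each of the 52 genes in libraries 1 (circles), 2 (squares) and 3 (triangles), on a log axis, ordered by the ratio of library 3 to the mean of libraries 1 and 2. The triangles are rightmost by the rule, and the squares lie to the right of the circles for 46 of the 52 genes.

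The rule did not set the order of libraries 1 and 2. Library 2 was above library 1 in 46 of the 52 genes (88.5%), against 49.8% of all protein-coding genes at the level. Only 2.26% of all genes at the level varied more than 2 times, so the share of 49.8% is no measure for variable genes. Of the 147 genes that varied so, 84 were highest in library 2 and 6 in library 1. A library 2 above library 1 was therefore not particular to the members. Library 3 was more than 2 times each other library for 37 members. The rule favours such genes, so the share of 0.614% over all genes at the level is no contrast with them. On the log scale, library 2 lay between the others and nearer to library 1 for 32 members, and between them and nearer to library 3 for 14. It was the lowest library for 6, which were CG6910, Cyp4d1, CG12116, CG15765, phr and CG15212.

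**Figure D2:**
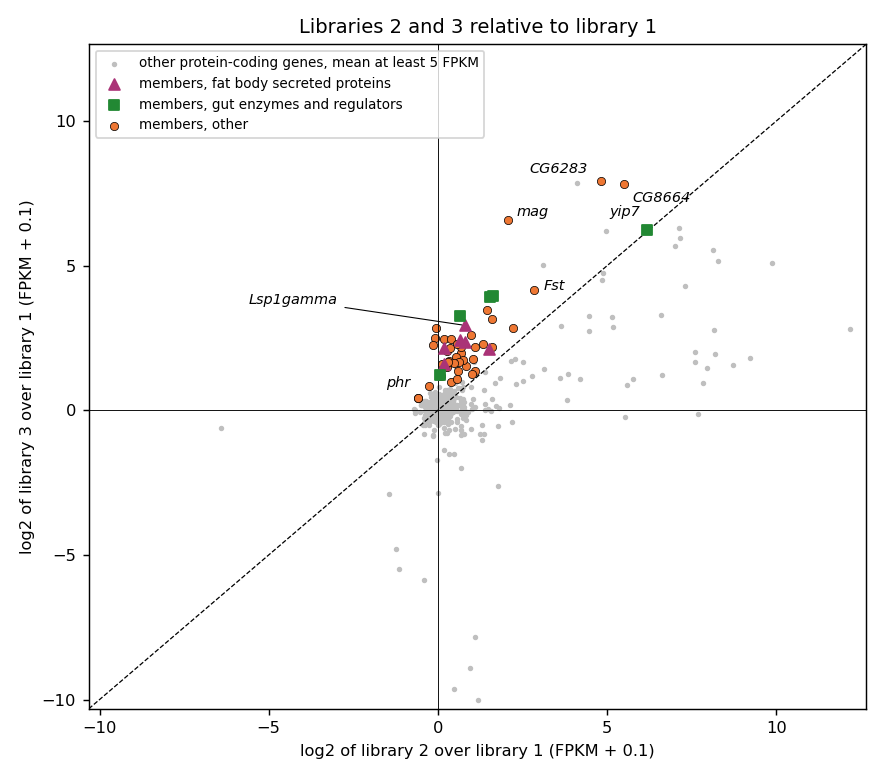
Log2 difference of library 2 from library 1 (horizontal) and of library 3 from library 1 (vertical), of FPKM + 0.1, for all protein-coding genes averaging at least 5 FPKM. Grey points are other genes, and coloured points are members. On the dashed line libraries 2 and 3 are equal, and the gut gene yip7 lies close to it while Lsp1gamma and mag lie above it.

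Storage proteins of the fat body were the most abundant members. The larval serum proteins are hexamerins that the fat body secretes late in larval life and later takes up again as an amino acid store. Lsp1gamma (chromosome 3L 66430 to 68995, dm6 coordinates) stood at 123, 216 and 939.7 FPKM in libraries 1, 2 and 3. Lsp2 (3L 12129393 to 12131869) stood at 123, 193 and 657 FPKM. Lsp1beta (2L 898500 to 901316) stood at 92.5, 161 and 474 FPKM. In each of these 3 genes library 3 was far above the others and library 2 was moderately above library 1. Their ratios of library 3 to the mean of the others were 5.55, 4.16 and 3.74, with 95% exact (Clopper-Pearson) counting intervals of 5.48 to 5.66, 4.10 to 4.24 and 3.69 to 3.83. These intervals, here and below, cover counting error only. Lsp1alpha (X 12490291 to 12492982), the remaining larval serum protein gene, was at 29.6, 85.4 and 128 FPKM. It differed in shape, since library 2 was 2.88 times library 1 and library 3 was only 1.49 times library 2, where the other 3 genes had 2.95 to 4.36 times. The exons of Lsp2 are covered for 84.6% by an antisense gene, asRNA:CR11538, which itself stood at 0.142, 0.258 and 0.285 FPKM. The strand setting of the counting is not given in the sources used here.

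Lipid carriers, lipid storage and hemolymph genes were also members. apolpp (chromosome 4 1060969 to 1077273), which encodes the apolipophorin that carries lipids through the hemolymph, stood at 5.57, 6.35 and 25.04 FPKM, a ratio of 4.20 (counting interval 4.04 to 4.38). Lsd-1 (3R 23763857 to 23766662), a perilipin on the surface of fat droplets, stood at 5.88, 6.37 and 18.1 FPKM, a ratio of 2.95. For both genes libraries 1 and 2 were nearly equal and library 3 stood apart. regucalcin, a calcium-binding protein gene, was at 75.1, 85.1 and 229 FPKM. fon (2L 19383138 to 19386205), the fondue gene of hemolymph clotting, was at 5.11, 7.58 and 25.4 FPKM, a ratio of 4.005 (counting interval 3.67 to 4.39). Npc2g, of a family of sterol-binding proteins, was at 3.93, 6.37 and 18.3 FPKM. All of these genes had library 1 lowest and library 3 at least 2 times library 2.

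Several other fat body genes had library 3 close to library 2. Of 13 genes at the level in a list of fat body secreted proteins, 6 were members (46.2%, against 0.798% of all genes at the level). In the list 8 genes were highest in library 3 (61.5%, against 35.7% of all genes), 4 in library 2 and 1 in library 1. The rule required the 6 members to be highest in library 3, so nothing is read from these shares. The median log2 difference of library 3 from the mean of the others was 0.40 for the list, and -0.0065 for all genes at the level. The 6 members, chosen for a high library 3, enter the list median. Fbp1, the fat body receptor that takes up the serum proteins, stood at 124, 164 and 164 FPKM, and Fbp2 at 44.0, 74.4 and 77.3 FPKM. Mtp, which loads lipids onto lipophorin, was at 25.5, 26.6 and 26.0 FPKM. Libraries 2 and 3 were nearly equal for these 3 genes. Of 22 lipid storage and synthesis genes at the level 2 (9.09%) were members, Lsd-1 and mag, and the list median was 0.04. ACC and ATPCL, enzymes of fatty acid synthesis, stood at 11.7, 11.1 and 10.2 FPKM and at 65.5, 66.6 and 62.3 FPKM.

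The markers of other organs differed in which library was highest. In bulk RNA, fewer cells of a type and less RNA per cell cannot be told apart. The summed level of 11 fat body markers, 6 of which are members, was 573, 933 and 2510.4 FPKM in libraries 1, 2 and 3. The 8 gut markers, 2 of which are members, summed to 4.35, 10.4 and 55.4 FPKM. The 6 salivary gland markers, the Sgs glue genes, held no member, and they summed to 126, 811 and 288 FPKM, with library 2 highest. The members among the fat body and gut markers were chosen for being highest in library 3, and their values enter those sums, so nothing is read from the order of these sums. All 8 glue list genes at the level were highest in library 2, against 32.6% of all genes at the level. A gene can reach the level through library 2, so nothing is read from this share. The sums of 22 hemocyte, 33 larval muscle, 8 myoblast and 11 tracheal markers were 201 to 242, 588 to 631, 181 to 197 and 474 to 524 FPKM. Markers at 0 in all libraries were Act79B and Zasp67 of larval muscle, Osi18, Osi19 and Osi20 of trachea, gcm2 of glia, and osk and zpg of germline. The other sets held none at 0, those of fat body, gut, salivary gland, hemocyte and wing disc among them. The gut marker LysP, however, had reads in library 3 alone, at 0.13 FPKM, so nothing is read from this difference. The part of these tissues in the members' values was not tested.

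**Figure D3:**
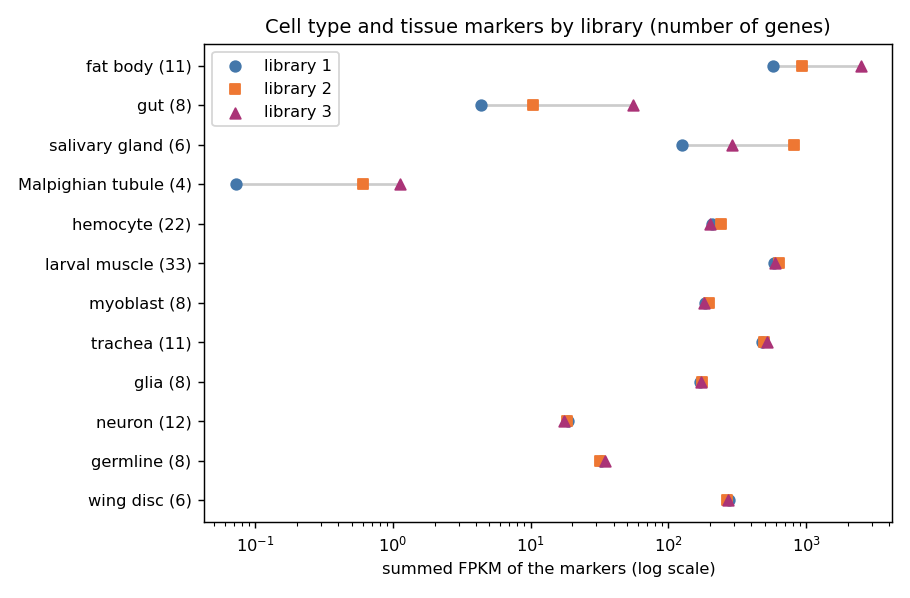
Summed FPKM of the markers of each tissue or cell type in libraries 1, 2 and 3, on a log axis, with the number of genes in brackets. Fat body sums run from 573 to 2510.4 FPKM and gut sums from 4.35 to 55.4 FPKM with library 3 highest, salivary gland sums from 126 to 811 FPKM with library 2 highest, and wing disc sums from 268 to 277 FPKM.

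Genes of digestion were among the members with the largest ratios. mag (chromosome 3L 20460683 to 20462274), which encodes the gut lipase Magro, stood at 0.203, 1.17 and 29.3 FPKM in libraries 1, 2 and 3, or 8, 45 and 1081 reads. Its level in library 3 was 42.5 times the mean of the others (counting interval 32.5 to 57.6), the largest ratio among the members. LysB (3L 1207371 to 1207981), LysD (3L 1210717 to 1211196) and LysS (3L 1227747 to 1228238) encode digestive lysozymes. LysB stood at 1.72, 5.55 and 28.1 FPKM, LysD at 2.35, 3.77 and 23.6 FPKM and LysS at 1.53, 4.62 and 24.6 FPKM. The 3 genes were alike, with ratios of 7.71 to 8.01, and library 3 was 5.06 to 6.25 times library 2. LysB and LysD belong to a family of close copies, and their values are uncertain because reads could be divided between copies.

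Other digestive members had smaller ratios or another shape. Mal-A5, a maltase, stood at 5.18, 5.46 and 12.3 FPKM, with libraries 1 and 2 nearly equal. yip7, a serine protease gene related to the Jonah genes, stood at 1.04, 83.0 and 85.4 FPKM, so that it was nearly absent from library 1 and 1.03 times as high in library 3 as in library 2. Its recovered reads numbered 25, 1948 and 1931. CG18180, a member that is in none of the gene lists and so is not counted with digestion, was at 1.29, 6.33 and 9.94 FPKM. It also had library 2 closer to library 3. Of 7 genes at the level in the list of gut enzymes and regulators 5 were members (71.4%, against 0.798% of all genes at the level), and 1 gene, LysX, was highest in library 2 at 0.0666, 32.2 and 0.567 FPKM. The list holds 37 genes in all. LysB, LysD and LysS reached the mean limit through library 3, and LysX through library 2. The limit thus drew on the values that the rule used, and nothing is read from this share. The list median of the log2 difference was 1.19, which is the value of the member Mal-A5, so the rule set its direction.

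Members that were nearly absent from library 1 included 2 genes of high rank without a symbol of their own. CG6283 (chromosome 3R 27020238 to 27021378) stood at 0.0347, 3.73 and 33.0 FPKM, from 1, 105 and 894 reads. CG8664 (X 17280918 to 17282726) stood at 0.0717, 7.60 and 38.7 FPKM, from 3, 310 and 1519 reads. In both genes library 2 lay between the others, and the ratios of library 3 to the mean of the others were 17.5 (counting interval 14.5 to 21.9) and 10.1 (counting interval 9.03 to 11.6). A transposable element on the same strand covers 12.2% of the CG8664 exons.

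Immune and stress genes gave a few members. TotA (chromosome 3R 20871036 to 20871700), a secreted stress protein of the Turandot family that the fat body makes, stood at 12.8, 25.3 and 79.3 FPKM, a ratio of 4.16 (counting interval 3.78 to 4.63). Fst (3R 9644978 to 9646154), the Frost gene induced during recovery from cold, stood at 0.861, 6.81 and 17.3 FPKM. IM33, an immune-induced molecule, was at 2.27, 4.95 and 10.7 FPKM, and NimB3, a member of the Nimrod family, at 2.98, 3.80 and 9.95 FPKM. In TotA, Fst and IM33 library 2 lay well between the others, whereas in NimB3 it lay near library 1. Of 14 immune list genes at the level 2 were members (14.3%, against 0.798% of all genes at the level) and 11 were highest in library 3 (78.6%, against 35.7% of all genes), and the list median was 0.08. The humoral pattern receptor gene GNBP3 stood at 169, 178 and 184 FPKM and the transcription factor gene Rel at 21.6, 22.2 and 21.7 FPKM. Of 10 hemocyte list genes at the level 1, NimB3, was a member, against 0.798% of all genes at the level. Nothing is read from this 1 gene. The crystal cell genes PPO1 and PPO2, which encode prophenoloxidases, were highest in library 2, PPO1 at 7.29, 19.0 and 4.07 FPKM and PPO2 at 11.5, 28.4 and 5.63 FPKM. Of 14 heat shock genes at the level none was a member, against 0.798% of all genes, and nothing is read from this absence. In that list 2 genes were highest in library 3 (14.3%, against 35.7% of all genes).

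Metabolic and detoxification members were few. Gs1 (chromosome 2L 132077 to 134472), a glutamine synthetase, stood at 7.88, 10.9 and 24.7 FPKM, while its paralog Gs2 was highest in library 2 at 12.6, 41.2 and 13.9 FPKM. The paralogs therefore had opposite orders of libraries 2 and 3. Cyp4d1 (X 2159145 to 2162180), a cytochrome P450 gene, stood at 2.25, 2.11 and 13.1 FPKM, a ratio of 6.02 (counting interval 5.22 to 6.96). MtnA, a copper-binding metallothionein, was at 4.77, 14.7 and 22.05 FPKM. Thor, the 4E-BP inhibitor of translation that insulin signalling restrains, was at 15.8, 24.1 and 41.1 FPKM. Of 26 detoxification genes at the level 2 were members (7.69%, against 0.798% of all genes) and 19 were highest in library 3 (73.1%, against 35.7% of all genes), with a list median of 0.10. Of 17 damage and starvation response genes at the level 1, Thor, was a member (5.88%, against 0.798% of all genes). InR and foxo stood at 11.8, 11.0 and 11.3 FPKM and at 13.9, 13.8 and 12.9 FPKM. None of 21 sugar and glycogen genes at the level and none of 16 ecdysone response genes was a member. Only 0.798% of all genes at the level were members, so nothing is read from these absences.

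**Figure D4:**
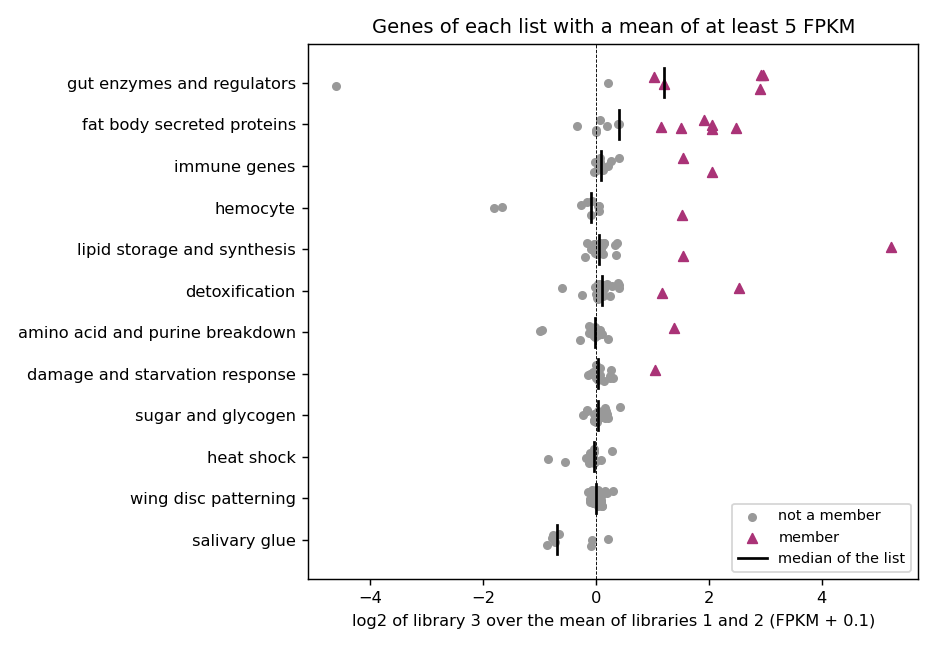
Log2 difference of library 3 from the mean of libraries 1 and 2 (FPKM + 0.1) for each gene averaging at least 5 FPKM in 12 lists. Triangles are members, grey circles are other genes and the black bar is the list median, which is 1.19 for gut enzymes, 0.40 for fat body secreted proteins, near 0 for disc patterning genes and -0.69 for salivary glue genes. Members, chosen for a high library 3, enter the medians of their lists, and the gut median is that of a member.

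Other named members had smaller ratios. UK114 stood at 2.95, 3.54 and 9.24 FPKM. Reg-2, the rhythmically expressed gene 2, was at 8.33, 8.85 and 19.1 FPKM. Cys, a cystatin-like inhibitor of cysteine proteases, was at 6.83, 8.99 and 13.7 FPKM, and its exons are covered for 90.7% by the antisense gene asRNA:CR44095, at 0.339, 1.14 and 0.927 FPKM. phr, a photolyase that repairs ultraviolet damage, was at 17.4, 11.6 and 23.3 FPKM, with library 1 between the others. For UK114 and Reg-2 libraries 1 and 2 were alike, whereas Cys and phr showed spread among all 3 libraries.

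Of the 52 members 23 (44.2%) carry only a CG number as their name, against 32.3% of all genes at the level. The highest of these was CG34166, at 105, 128 and 334 FPKM, followed by CG2233 at 17.1, 28.5 and 57.4 FPKM and CG16704 at 14.3, 22.8 and 56.4 FPKM. CG34291 stood at 4.64, 14.3 and 41.8 FPKM. An antisense gene that is listed at 0 in each library covers 50.6% of its exons. CG6910 was at 3.20, 3.06 and 23.4 FPKM, CG3348 at 4.82, 5.42 and 27.2 FPKM, CG12116 at 4.90, 4.42 and 23.7 FPKM and CG15369 at 3.60, 4.76 and 20.1 FPKM. These 4 genes were at 3.06 to 5.42 FPKM in libraries 1 and 2 and at 20.1 to 27.2 FPKM in library 3. CG13315 stood at 1.82, 5.11 and 21.2 FPKM, CG42846 at 2.80, 3.62 and 12.8 FPKM and CG5773 at 2.68, 3.26 and 11.4 FPKM. CG16926 stood at 7.02, 10.8 and 22.8 FPKM and CG13641 at 4.50, 5.47 and 13.0 FPKM. CG8745 was at 1.82, 4.79 and 9.40 FPKM, with library 2 between the others, and CG15765 was at 6.89, 5.71 and 12.3 FPKM, with library 2 lowest. The ratios of all 23 genes ranged from 1.602, for CG12825, to 17.5, for CG6283.

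Members lay within 20 kb of another member at 3 places in the genome. These places held 8 members, and the other 44 had no member that near. The matching share over all genes at the level was not taken, so clustering was not tested. On chromosome 2L (3692123 to 3696658) CG16704, CG16713 and IM33 lay within 4.54 kb among 7 genes. CG16713 stood at 6.47, 9.48 and 23.7 FPKM, and the 3 genes had ratios of 3.05, 2.98 and 2.97. Their neighbours CG3513, Acp24A4 and CG43165 were below 1 FPKM in every library. On 3L (1207371 to 1228238) the 3 lysozyme members lay among 6 genes of the family. LysC, listed as a pseudogene and so not a member, stood at 0.776, 1.27 and 14.4 FPKM. LysE, below the level limit, stood at 0.129, 0.332 and 5.51 FPKM, and LysP had reads in library 3 alone, at 0.13 FPKM. All 6 of these family genes were highest in library 3, but the rule required this of the 3 members, which also set the window. LysP was barely detected. LysX, outside the window, was highest in library 2, as given above.

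The last place held ppk20 and ppk30 on chromosome 3R (29666814 to 29671478), pickpocket genes for sodium channel subunits of the DEG/ENaC family. ppk20 stood at 4.26, 8.85 and 14.7 FPKM and ppk30 at 3.56, 6.40 and 10.4 FPKM. In both genes library 2 lay between the others, and the ratios were 2.25 and 2.09. The pair shares no exon with any other annotated gene.

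Members had fewer exons and a smaller summed exon length than most genes at the level, by their medians. Their median summed length of merged exons was 902.5 bases, from 267 for CG34291 to 11766 for apolpp, against a median of 2153 for all genes at the level. Exons summed to under 1000 bases in 28 of 52 members (53.8%) and in 14.2% of all genes at the level. The median number of merged exons was 2 against 4. By chromosome arm 14 members lay on 3L, 13 on 3R, 10 on 2L, 8 on X, 6 on 2R and 1 on chromosome 4, that is 26.9%, 25.0%, 19.2%, 15.4%, 11.5% and 1.92%. The shares of all genes at the level were 20.1%, 24.4%, 17.3%, 16.7%, 20.2% and 0.814%. These shares were not tested.

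Several members lay close to the limits of the rule. The smallest ratios of highest to lowest value inside it were 2.01 for Cys, 2.01 for phr and 2.03 for CG15212, and the largest outside were 1.95 for Orct and 1.88 for CG12481. The lowest means inside were 5.20 FPKM for CG8157 and 5.24 FPKM for UK114, and just outside lay aay at 4.91 FPKM and Tsp42Ek at 4.68 FPKM. CG8369 and CG8157 had library 3 only 1.43 and 1.19 times library 2, and CG12825 1.20 times. Their separation from library 2 is therefore small.

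Genes of lower level also met the other conditions of the rule. Of 1056 protein-coding genes with a mean from 1 to under 5 FPKM, 122 (11.6%) varied more than 2 times and were highest in library 3. The matching shares for libraries 1 and 2 in that range were not taken, so no contrast between libraries is drawn. Among the listed genes in that range, chosen here after their values were seen, Hn, the phenylalanine hydroxylase gene, stood at 1.49, 2.37 and 6.65 FPKM. NimB2, another Nimrod gene, stood at 1.15, 1.93 and 5.32 FPKM, and Gbp2, a growth-blocking peptide gene, at 1.14, 1.69 and 5.63 FPKM. Cyp4e3, a cytochrome P450 gene, stood at 0.104, 0.661 and 7.09 FPKM. In each of these 4 genes library 2 was closer to library 1 than to library 3 in FPKM.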

How the data were processed

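RNA from pooled wing discs was sequenced as pairs of 50 nt on a HiSeq 2000, per the labels' protocols. The authors deposited 1 table of FPKM values for 17611 genes, with 1 column per library. Columns and samples were paired by number only, as the column prefix is in no label. The submitters' processing notes name build dm6 and, with no role or order, STAR 2.7.6a, featureCounts 1.6.0, CASAVA 1.8, DESeq2 without a version and FastQC 0.11.8. For the annotation, the strand setting and multiply matching reads nothing is given in the sources used here.

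The rule was applied to the deposited FPKM in Python 3.11.15 with pandas 2.3.3. Differences in log2 were taken of FPKM + 0.1, which understates changes of low genes. Reads were recovered as FPKM times merged exon length in Ensembl release 115 (BDGP6, dm6 coordinates), available for 17551 genes. Over 99.7% of values above 0 were whole within 0.01 of a read. Depth limits precision to the counting intervals given. In 1 group no comparison of conditions exists, and no test was made. The script was checked on simulated data.

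The members and the 22 gene lists, written from general knowledge, were chosen with earlier results of these data known. Of 629 listed genes 622 matched the table. Genes named were the members with the largest ratios, means and list ranks, those at the limits of the rule and neighbouring members, and list genes outside that rule were named after their values were seen. Promoter motifs were not analysed here. Alternatives were other limits, pseudocounts and scalings, and leaving out a library.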

Additional observations from a re-analysis of the deposited data

How the results depend on the processing

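Of 25 alternative results, 18 stayed within 1.5 times the count or within the spread of the ratio, and 7 moved. The spread, 0.556, was the standard deviation of the median log2 ratios without library 1 and without library 2. It is therefore no independent measure for those settings. The number of genes that met the rule was 174 with a mean of at least 1 FPKM and 28 with at least 10 FPKM, limits that admit different numbers of genes. It was 549 with no mean limit and a ratio of FPKM + 0.1, where both choices changed together and their shares were not tested. It was 46 to 65 when library 1 or library 2 was left out. Without library 1, 40 of the 52 genes met the rule, and the 12 that did not include Lsp1alpha, yip7, MtnA, Thor, ppk20 and ppk30. Without library 2, 48 did, and CG15212, CG15765, CG8157 and phr did not. Without library 3 the rule has no value. Under the plain library total 51 genes met the rule, all but Cys. The median log2 ratio over members was 1.54, with a range of 1.36 to 2.15 when library 1 or library 2 was left out. With a mean of at least 10 FPKM, 23 genes had library 3 more than 2 times each other library, and 2 had library 2 lowest. With FPKM + 1 in the ratio 3 genes had library 2 lowest. No paired analysis was possible because all libraries belong to 1 group. Genes with few reads in library 1, such as CG6283 and CG8664, have ratios to that library that depth does not fix.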
